A study of Rattus norvegicus with 12 samples.

Results

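The genes Nos3 (ENSRNOG00000009348), Vwf (ENSRNOG00000019689) and Cav1 (ENSRNOG00000056836), which are known from blood vessel endothelium, were followed by their identifiers among the 32623 gene identifiers of a count table from rat lung. All 3 genes were present, no library had fewer than 138 counts of any of them, and all passed the filter on low counts, which kept 14956 genes for testing. The table held 12 libraries, each from the homogenised right lung of a male Sprague-Dawley rat, in 3 groups of 4. SAL animals received saline into the trachea on days 0 and 4 and methylcellulose, the oral vehicle, daily for 3 weeks from day 7. BLM animals received bleomycin, a DNA-damaging drug that scars the lung when given into the airway, at 1 U/kg on the same 2 days, and then the same oral vehicle. NINT animals received bleomycin in that way and then oral nintedanib, an inhibitor of growth factor receptor kinases, at 100 mg/kg daily over the same 3 weeks. Every animal was killed on day 28. The comparisons ask how these genes differed after bleomycin and how they differed when nintedanib was given after bleomycin.

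Endothelial cells line the vessels of the lung and form the inner wall of its alveolar capillaries. Nos3 encodes the endothelial nitric oxide synthase, whose product relaxes vascular smooth muscle. Cav1 encodes caveolin-1, the coat protein of the membrane pits called caveolae, which binds the Nos3 enzyme and holds it in a less active state; it is also abundant in the flat type I cells of the alveolar epithelium and is present in fibroblasts and smooth muscle. Vwf encodes von Willebrand factor, a secreted protein that tethers platelets to injured vessel walls and is stored in Weibel-Palade bodies, more in larger vessels than in capillaries; megakaryocytes make it too.

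The sequences before the starts of Cav1 and Nos3 are shown beside each other. Cav1 passed the test after bleomycin and Nos3 did not, but unequal change of these genes was not shown, as given below. RefSeq promoter sequences on build GRCr8 were matched for 2 of the 3 genes, Nos3 with 1 start and Cav1 with 2. The build differs from the one named for the counts, rn6, and the sequences are given as a description only. Each is the 250 bases before the start, 5′ to 3′ on the gene's strand, and capitals mark GGGCGG, the core of the GC box, on either strand. Nos3 lies on the minus strand (chr4:11706582-11706831) and Cav1 on the plus strand (chr4:46606288-46606537 for the first start and chr4:46607722-46607971 for the second).
Nos3: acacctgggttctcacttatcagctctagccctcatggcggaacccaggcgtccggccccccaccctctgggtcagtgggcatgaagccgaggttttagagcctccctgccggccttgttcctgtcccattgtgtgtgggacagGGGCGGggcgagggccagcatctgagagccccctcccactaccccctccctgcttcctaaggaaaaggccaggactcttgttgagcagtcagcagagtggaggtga
Cav1, first start: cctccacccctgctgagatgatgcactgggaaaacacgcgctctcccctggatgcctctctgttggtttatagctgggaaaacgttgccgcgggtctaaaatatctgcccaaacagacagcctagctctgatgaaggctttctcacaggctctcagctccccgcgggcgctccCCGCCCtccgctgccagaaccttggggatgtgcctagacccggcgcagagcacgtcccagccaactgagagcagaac
Cav1, second start: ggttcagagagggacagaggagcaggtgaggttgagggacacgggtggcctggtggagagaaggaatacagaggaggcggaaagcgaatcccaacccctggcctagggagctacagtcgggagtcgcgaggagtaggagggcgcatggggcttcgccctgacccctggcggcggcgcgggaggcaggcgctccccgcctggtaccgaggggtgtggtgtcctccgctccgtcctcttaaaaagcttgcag
GGGCGG was found 1 time before the Nos3 start, 1 time before the first Cav1 start and 0 times before the second. It was present on either strand in 30.5% of the 33469 promoters of the same length. TATAAA, the core of the TATA box, was also counted on either strand. It was found 1 time before the first Cav1 start, on the opposite strand, where the stretch shown reads tttata. The other stretches held it 0 times each, against 12.9% of all promoters with a match on either strand. The stretches held 62.4%, 60.0% and 65.6% G and C in the order shown, where the median promoter held 51.2%. No measurement of these data was made at the promoters.

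Expression was measured by QuantSeq FWD, which reads the 3′ end of each polyadenylated transcript. Library totals ranged from 16572004 to 18586133 counts among SAL animals, from 18926664 to 21719946 among BLM animals and from 17697037 to 21343622 among NINT animals. The values below are CPM, counts scaled to a common library total after TMM normalization, an edgeR scaling whose factors lay between 0.9655 and 1.032. CPM were compared between libraries for 1 gene at a time, not between genes. Because the libraries come from whole tissue, a smaller share of cells that express a gene and less RNA per cell cannot be told apart. For Cav1 and Vwf those cells are not endothelial alone, as described above. The count table pairs no identifier with a symbol, so other endothelial genes and markers of other lung cell types were not analysed here, nor was the tissue label checked against markers.

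After bleomycin, Vwf fell by 27.3% and Cav1 fell by 31.0%, and in both cases every BLM animal lay below every SAL animal, as it did for 21.2% of all tested genes. Nos3 did not pass the test in any comparison. These were 2 of 3 genes called lower in BLM than in SAL by edgeR's quasi-likelihood test at an adjusted p-value under 0.05, where 22.4% of all tested genes were called lower and 40.8% were called in either direction. With so wide a response across the transcriptome, a count over 3 genes says little about endothelial genes as a group. Neither Vwf nor Cav1 passed in the comparisons that involve nintedanib.

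**Figure D1:**
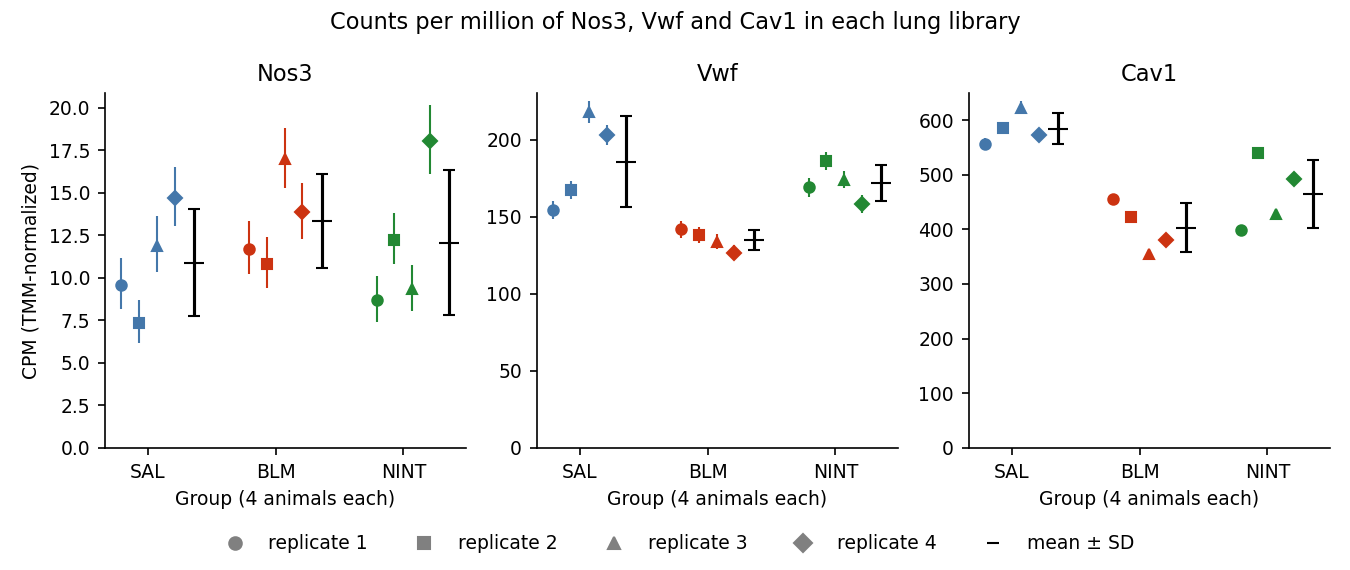
CPM of Nos3, Vwf and Cav1 (vertical axes, from 0) in the 4 animals of each group (horizontal axis); symbols are libraries with exact 95% Poisson intervals and black bars are the group mean ± SD. Vwf and Cav1 show BLM animals below all SAL animals, while Nos3 shows overlapping groups.

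Vwf, the platelet-tethering protein of the vessel wall, was measured from 2557 to 3980 counts per library. In SAL its level was 154 CPM in replicate 1, 167 CPM in replicate 2, 218 CPM in replicate 3 and 203 CPM in replicate 4. In BLM the animals stood at 142, 138, 134 and 127 CPM in replicate order. The 4 BLM animals lay close together and below the lowest SAL animal. In NINT the animals stood at 169, 186, 174 and 158 CPM. All 4 NINT animals lay above the highest BLM animal and within the range of the SAL animals.

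Vwf averaged 186 ± 29.7 CPM in SAL animals, 135 ± 6.51 CPM in BLM animals and 172 ± 11.7 CPM in NINT animals (SD, n = 4 per group). Bleomycin changed it by a log2 fold change of -0.46 (SE 0.10, 95% interval -0.68 to -0.23, edgeR adjusted p = 0.00564). This call was kept in each of the 12 fits that left out 1 library, with the smallest change, -0.34, when SAL replicate 3 was left out (edgeR adjusted p = 0.0212). From BLM to NINT the log2 fold change of Vwf was 0.35 (SE 0.10, 95% interval 0.12 to 0.57). Its unadjusted edgeR p-value was 0.00532 and its adjusted p-value 0.0627, so the difference missed the threshold. In that comparison 2.37% of tested genes were called higher, and in 6.27% every NINT animal lay above every BLM animal, as for Vwf. Of 23 alternative analyses, 3 called it. They were the DESeq2 Wald test (adjusted p = 0.0186) and the edgeR fits without SAL replicate 1 (adjusted p = 0.0466) and without BLM replicate 2 (adjusted p = 0.041). The other 20 did not, with an edgeR adjusted p of 0.169 without NINT replicate 2. With only the NINT and BLM libraries fitted, the edgeR adjusted p was 0.086. Between NINT and SAL the log2 fold change was -0.11 (SE 0.10, 95% interval -0.34 to 0.11, edgeR adjusted p = 0.497), and without SAL replicate 3 it was 0.02. In the order of group means BLM was the lowest. edgeR called NINT different from neither SAL nor BLM, so its place between them was not settled.

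Variation of Vwf between animals was unequal among the groups. The coefficient of variation was 16.0% among SAL, 4.82% among BLM and 6.79% among NINT animals, where counting alone would give about 1.72% to 1.93%. The spread in SAL lay between replicates 3 and 4, which lay above all libraries of the other groups, and the other 2 animals. This unequal spread was described and not tested.

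Cav1, the coat protein of caveolae, had the most reads of the 3 genes, from 7395 to 11537 counts per library. In SAL its level was 556, 586, 622 and 573 CPM in replicate order. In BLM it was 456 CPM in replicate 1, 422 CPM in replicate 2, 355 CPM in replicate 3 and 380 CPM in replicate 4. The BLM animals were all below the SAL animals, with replicates 3 and 4 the lowest of the 12 libraries. In NINT the animals stood at 399, 539, 429 and 492 CPM. These values ranged from within the BLM group to just under the lowest SAL animal.

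Cav1 averaged 584 ± 28.3 CPM in SAL animals, 403 ± 44.6 CPM in BLM animals and 465 ± 63.0 CPM in NINT animals (SD, n = 4 per group). Bleomycin changed it by a log2 fold change of -0.53 (SE 0.10, 95% interval -0.76 to -0.31, edgeR adjusted p = 0.00294). All 12 fits that left out 1 library called it, and without BLM replicate 3 the change was -0.44. From BLM to NINT the log2 fold change was 0.20 (SE 0.10, 95% interval -0.02 to 0.43, edgeR adjusted p = 0.21), and the animals of these groups overlapped. Leaving out NINT replicate 2, the highest of its group, gave 0.12. Between NINT and SAL the log2 fold change was -0.33 (SE 0.10, 95% interval -0.56 to -0.10). Its unadjusted edgeR p-value was 0.00747 and its adjusted p-value 0.0647, while 5.05% of tested genes were called lower in that comparison. Every NINT animal lay below every SAL animal, as was the case for 17.8% of tested genes. This difference lay near the threshold and was called in 6 of 23 alternative analyses. Among them were DESeq2 (adjusted p = 0.0492) and edgeR with the BLM libraries set aside (adjusted p = 0.0351). The edgeR fits without BLM replicate 3 (adjusted p = 0.0485) or NINT replicate 2 (adjusted p = 0.0365) called it too. The other 17 did not, and without any 1 SAL library the edgeR adjusted p was 0.139 to 0.205. In the order of group means SAL was the highest. As with Vwf, edgeR called NINT different from neither of the other groups, so its place between them was not settled.

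Any 2 of the 3 comparisons share a group of animals, so the 3 values of a gene are not independent of each other. For Vwf the log2 fold change was -0.46 from SAL to BLM, 0.35 from BLM to NINT and -0.11 from SAL to NINT. For Cav1 the same steps were -0.53, 0.20 and -0.33. Between NINT and BLM, edgeR called 0 of the 3 genes, 1 had an unadjusted p-value under 0.05 and DESeq2 called 1, which was Vwf in both cases. Between NINT and SAL, edgeR called 0 of the 3 genes, 1 had an unadjusted p-value under 0.05 and DESeq2 called 1, which was Cav1 in both cases. In these 2 comparisons edgeR called 5.83% and 9.30% of all tested genes in either direction. DESeq2 called more, 1960 and 2295 of the 14956 genes, so its calls of Vwf and Cav1 were less rare than edgeR's shares imply. The share of all genes with an unadjusted p-value under 0.05 was not counted.

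**Figure D2:**
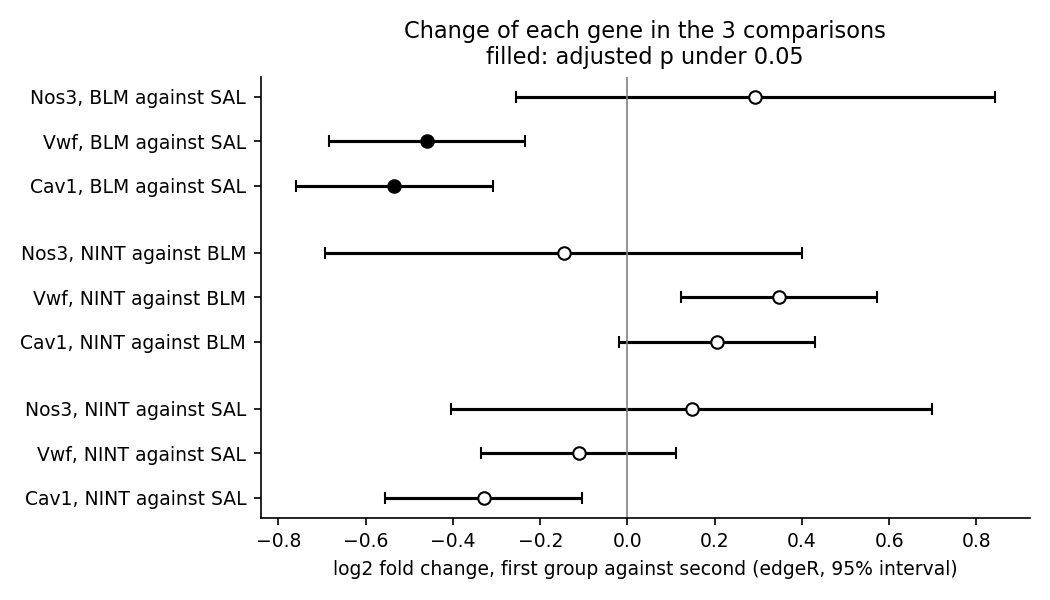
Log2 fold change with its 95% interval from edgeR (horizontal axis) for each gene in the 3 comparisons (rows); filled points passed an adjusted p-value of 0.05. The 2 filled points are Vwf and Cav1 in BLM against SAL, at -0.46 and -0.53.

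Nos3, the nitric oxide synthase of endothelium, had the fewest reads, from 138 to 367 counts per library. In SAL its level was 9.59, 7.37, 11.9 and 14.7 CPM in replicate order. In BLM it was 11.7, 10.8, 17.0 and 13.9 CPM, and in NINT it was 8.68, 12.2, 9.31 and 18.0 CPM. The groups overlapped in all 3 comparisons. The highest library was NINT replicate 4, with an exact 95% Poisson interval of 16.1 to 20.1 CPM, and the lowest was SAL replicate 2, with 6.19 to 8.71 CPM. These intervals cover counting error only.

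Nos3 averaged 10.9 ± 3.14 CPM in SAL animals, 13.3 ± 2.75 CPM in BLM animals and 12.1 ± 4.27 CPM in NINT animals (SD, n = 4 per group). The log2 fold change of BLM to SAL was 0.29 (SE 0.25), with an edgeR adjusted p of 0.373 and a 95% interval from 0.84-fold to 1.79-fold. From BLM to NINT it was -0.15 (SE 0.25), with an edgeR adjusted p of 0.718 and an interval from 0.62-fold to 1.32-fold. Between NINT and SAL it was 0.15 (SE 0.25), with an edgeR adjusted p of 0.739 and an interval from 0.76-fold to 1.62-fold. In BLM against SAL the lower bound of 0.84-fold lay above the fitted 0.73-fold of Vwf and 0.69-fold of Cav1; it fell inside the interval of Vwf (0.62-fold to 0.85-fold) and outside that of Cav1 (0.59-fold to 0.81-fold). NINT replicate 4 weighed on 2 of the comparisons: without it the log2 fold change of NINT was -0.40 against BLM and -0.11 against SAL, still short of the threshold. Without BLM replicate 3 the value in NINT against BLM was 0.000255. Without SAL replicate 4 the values against SAL were 0.52 for BLM and 0.39 for NINT, also short of it. No neighbouring pair in the order BLM, NINT, SAL differed beyond its spread.

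Depth was not the only limit for Nos3. Its coefficient of variation between animals was 28.8% among SAL, 20.6% among BLM and 35.4% among NINT animals, where counting alone would give 7.11%, 6.09% and 6.57%. The dispersion that edgeR fitted to Nos3 corresponded to a coefficient of variation of 25.4%, higher than in 77.5% of tested genes, against 11.8% for both Vwf and Cav1. On the GRCr8 map the 3′ end of Nos3 meets that of Atg9b, which is read from the opposite strand, and their annotated ends share 10 bases. Whether strand was used in counting is not given in the sources used here, so Nos3 counts may hold reads of its neighbour, or lack reads that fell on both. The annotated ends of Vwf and Cav1 shared no base with a neighbouring gene on that map.

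**Figure D3:**
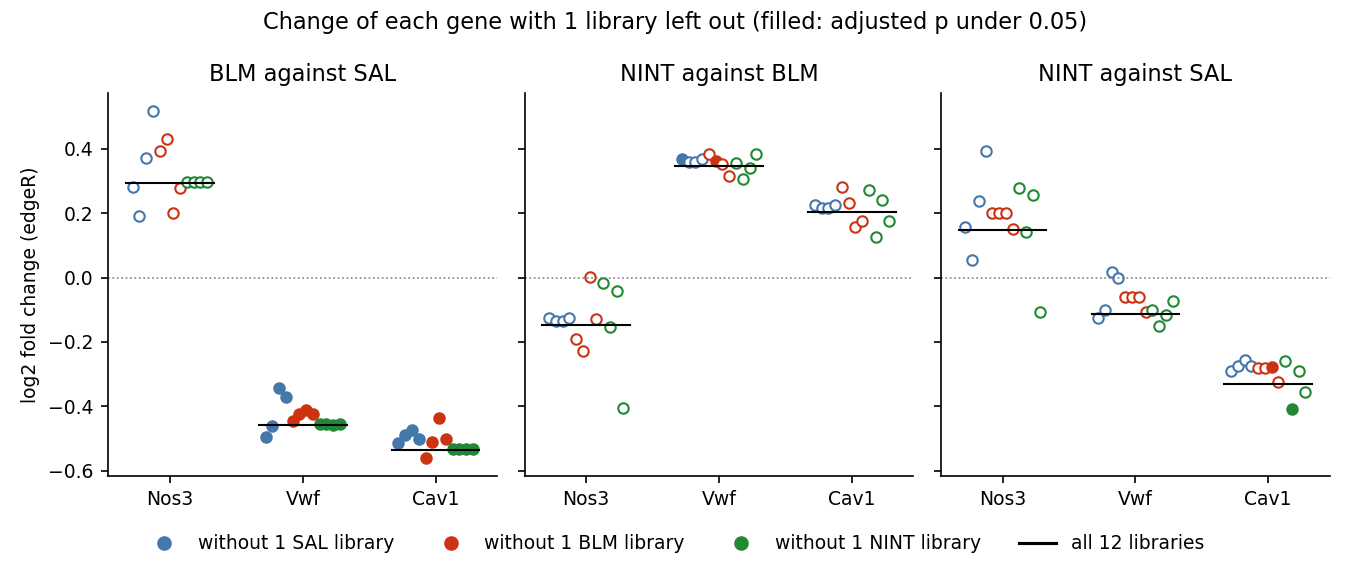
Log2 fold change of each gene in the 3 comparisons (vertical axis) with 1 library left out in turn, coloured by the group of that library; black lines are the values with all 12 libraries and filled points passed an adjusted p-value of 0.05. All 12 points of Vwf and of Cav1 are filled in BLM against SAL, and those of Nos3 are open in all 3 comparisons.

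A fall called for Vwf and Cav1 and not for Nos3 does not by itself show that the genes differed, so the ratios of their counts within each library were compared between groups. Such ratios depend on neither library depth nor normalization. The 9 differences were tested with two-sided exact permutation tests and adjusted over the 9. With 4 animals a group these tests cannot give a p-value under 0.0286. A ratio that alone separated its groups fully could therefore not pass after adjustment. A lack of passing ratios thus does not show that the genes changed equally. Of the 9 differences, 0 passed an adjusted p-value of 0.05 and 1 had an unadjusted exact p-value under 0.05.

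That 1 was the ratio of Vwf to Nos3 in BLM against SAL. Vwf had 16.1, 22.7, 18.3 and 13.8 times the counts of Nos3 in the SAL animals in replicate order and 12.1, 12.8, 7.87 and 9.13 times in the BLM animals. Every BLM ratio lay below every SAL ratio, and the mean log2 ratio was lower by 0.76 in BLM, a ratio of 0.59 to that in SAL (exact permutation p = 0.0286, adjusted p = 0.257). In the NINT animals the ratio was 19.5, 15.2, 18.7 and 8.76, so that 3 animals lay in the SAL range and replicate 4, the animal with the highest Nos3 level, in the BLM range.

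The ratio of Nos3 to Cav1, the enzyme and its binding partner in caveolae, was 1.73%, 1.26%, 1.91% and 2.57% in the SAL animals. In the BLM animals it was 2.57%, 2.56%, 4.79% and 3.65%, and the groups overlapped at their edges. The mean log2 ratio was 0.86 higher in BLM than in SAL, a 1.81-fold difference (exact permutation p = 0.0571, adjusted p = 0.257). In the NINT animals the ratio was 2.18%, 2.27%, 2.17% and 3.67%. The mean log2 ratio of NINT minus that of BLM was -0.39 (exact permutation p = 0.2, adjusted p = 0.294).

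The ratio of Vwf to Cav1 averaged 31.7% ± 4.08 in SAL animals, 33.7% ± 2.82 in BLM animals and 37.4% ± 4.87 in NINT animals (SD, n = 4 per group). The log2 ratio differed by 0.09 between BLM and SAL (exact permutation p = 0.4, adjusted p = 0.45), by 0.14 between NINT and BLM (exact permutation p = 0.229, adjusted p = 0.294) and by 0.24 between NINT and SAL (exact permutation p = 0.171, adjusted p = 0.294). Animals of all 3 groups overlapped in it. Unequal changes of Vwf and Cav1 were therefore not shown in any of the 3 comparisons.

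**Figure D4:**
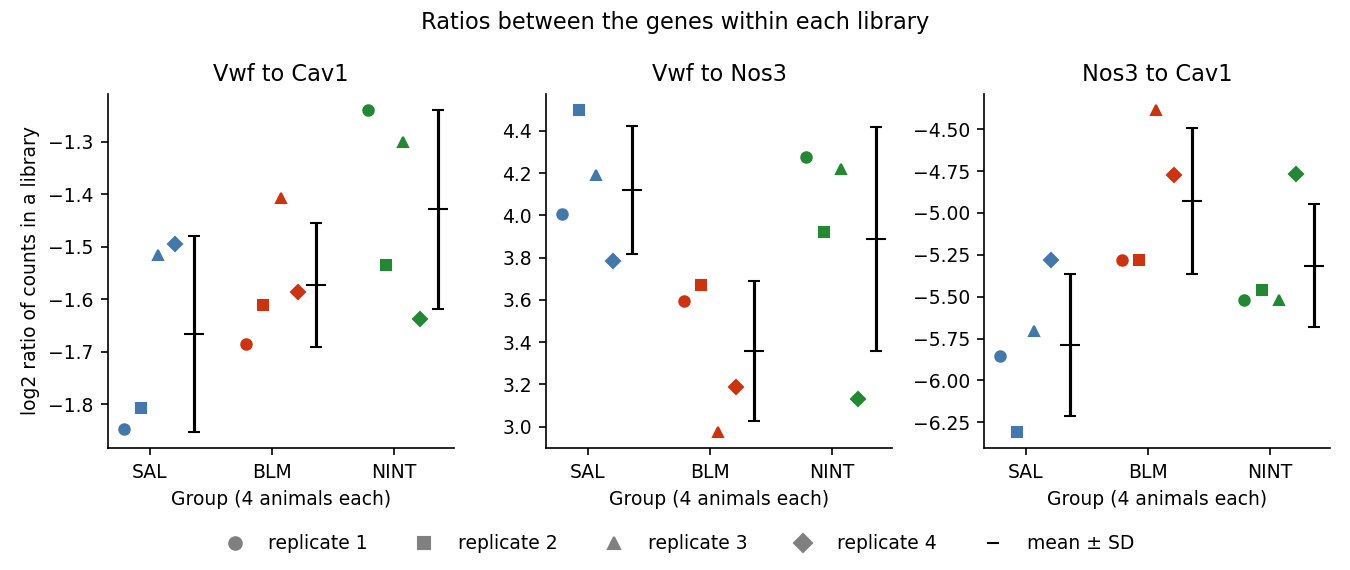
Log2 ratios of the counts of 2 genes within a library (vertical axes, not starting at 0) for the 4 animals of each group; symbols are libraries and black bars are the group mean ± SD. Vwf to Nos3 is the ratio in which all BLM animals lie below all SAL animals, and NINT replicate 4 stands apart in Nos3 to Cav1.

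Against the whole transcriptome the changes were of ordinary size. In BLM against SAL, 67.6% of tested genes had a smaller absolute log2 fold change than Cav1, 61.8% a smaller one than Vwf and 44.0% a smaller one than Nos3. The median absolute log2 fold change over all tested genes was 0.34 in that comparison, and it was 0.66 over the called genes. In NINT against BLM the change of Vwf was larger than that of 66.5% of tested genes.

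The gene whose profile was most like each of the 3 was sought among the 10338 other tested genes with a mean of at least 5 CPM, by Pearson's r of log2 CPM over the 12 libraries. These values are a description, since each is the highest of many, and libraries of a group share their treatment and each pair of genes its library. For Vwf it was ENSRNOG00000033299 (r = 0.922), with means of 652 CPM in SAL, 330 CPM in BLM and 556 CPM in NINT. For Cav1 it was ENSRNOG00000014745 (r = 0.968), with 11.8, 5.70 and 8.31 CPM in the same order. For Nos3 it was ENSRNOG00000061656 (r = 0.868), with 5.24, 7.23 and 6.07 CPM. After the group means were subtracted r was 0.727, 0.916 and 0.901 for these pairs, so the likeness to Vwf rested more on the groups than did the others. An r over 0.9 was reached by 139 genes with Cav1, 1 with Vwf and 0 with Nos3.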

How the data were processed

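RNA of 12 rat lungs was sequenced with QuantSeq FWD, per the labels' protocols. The authors deposited raw counts, whole numbers of reads per Ensembl identifier, 1 column per animal; the submitters' processing notes name FastQC, STAR, HTSeq and build rn6. Versions, annotation and strand setting are not given in the sources used here. Columns were assigned by the group and replicate number in their names; 7 empty unnamed columns were not used. Groups are animals as labelled, and no batch is given. Each of the 66 pairs of libraries differed by more than sampling noise (chi-square of at least 10.05 for each degree of freedom).

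In R 4.3.3, genes were kept with filterByExpr (minimum count 10, minimum total 15). edgeR 4.0.16 with TMM factors fitted 1 coefficient per group to all 12 libraries, and its quasi-likelihood F test gave p-values, adjusted by Benjamini-Hochberg over the 14956 genes. Standard errors were taken from the F statistic. Log2 CPM used a prior count of 2 and ratios a pseudocount of 0.5. The code was tested on simulated data. Alternatives used DESeq2 1.42.0, limma 3.58.1, other filters and scalings, a replicate block and each library left out.

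The 3 genes and all lists were chosen with earlier results of these data known. Symbols of the 3 genes were given with their identifiers; 0 of 32623 identifiers matched the reference table, so the planned gene lists were not run. The rule for named genes was the 3 genes in full and, for each, the 1 identifier with the highest correlation.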

Additional observations from a re-analysis of the deposited data

Results flagged for a closer look

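Each group of 4 was searched for an animal far from the others of its group, in the CPM and ratios of the 3 genes, the library totals, the TMM factors and the number of detected genes. Among 27 sets of values 2 held such an animal, where chance gives about 1.35. The ratio of Nos3 to Cav1 was 3.67% in NINT replicate 4, against 2.17% to 2.27% in the other NINT animals. The TMM factor was 0.993 in SAL replicate 3, against 1.027 to 1.032 in the other SAL libraries. This library also held the highest SAL values of Vwf and Cav1, 218 and 622 CPM. Scaled by library size alone, without the TMM factor, it was still the highest in SAL. It then held 216 CPM of Vwf and 618 CPM of Cav1, and the next SAL libraries 209 and 601 CPM. Without it both genes were still called in BLM against SAL (log2 fold changes of -0.34 and -0.47). The part of this library in the levels was not tested further.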

How the results depend on the processing

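Of 207 changes of the 3 genes recomputed under alternatives, 193 kept their direction and side of the threshold and 3 reversed, none of them called. The exact permutation tests on log2 CPM and group-weighted limma voom were chosen after seeing the data. In the exact permutation tests the falls of Vwf (-0.45) and Cav1 (-0.54) in BLM against SAL had an exact permutation p of 0.0286, the smallest possible, and 0.0643 after adjustment over 9; the other alternatives kept both calls (adjusted p from 4.75e-05 to 0.026). Vwf in NINT against BLM passed in 3 of 23 alternatives, among them DESeq2 (0.36), and was 0.31 to 0.38 with 1 library left out. Cav1 in NINT against SAL passed with library size alone (-0.38), DESeq2 (-0.30), group-weighted voom (-0.34) and only the groups compared (-0.28), and was -0.41 to -0.26 with 1 library left out. Values that reversed with 1 library left out were Nos3 in NINT against BLM (-0.40 to 0.000255), Nos3 in NINT against SAL (-0.11 to 0.39), Vwf in NINT against SAL (-0.15 to 0.0163) and the Vwf to Nos3 log2 ratio in NINT against SAL (-0.36 to 0.0195).

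The 872 genes called in NINT against BLM became 1960 with DESeq2, 147 with group-weighted voom, 28 with only the groups compared and 17 to 2857 with 1 library left out (without NINT replicate 2 and without BLM replicate 2). The 1391 in NINT against SAL became 2295, 4039 and 4248 in the same order, and 675 to 3344 (without NINT replicate 3 and without BLM replicate 3). The 6098 in BLM against SAL stayed within 4717 to 7092, but the majority of lower genes (2743 higher, 3355 lower) turned without a filter (3050 and 2980) and without SAL replicate 1 (2475 and 2405), 2 (2712 and 2698) or 4 (2618 and 2456), or BLM replicate 1 (3045 and 3034) or 2 (3606 and 3486). In NINT against SAL the split of 635 higher and 756 lower became 507 and 1088 with library size alone. Higher genes were instead the majority with DESeq2 size factors (730 and 645) and with no filter (704 and 446). The same held for a stricter count filter (699 and 582) and without any 1 SAL library, such as replicate 1 (671 and 314). Leaving out BLM replicate 1 or 2, or NINT replicate 1, 3 or 4, turned the majority too. The remaining alternatives kept more lower genes, such as limma voom (640 and 890). The cause of these shifts was not tested.

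The labels do not say that replicate numbers mark a shared batch, and same-numbered libraries correlated in their deviations from the group means at -0.166 to 0.203 over 12 pairs, with 3 of 12 closest to their own number. With a replicate block 5664 genes were called between BLM and SAL, 370 between NINT and BLM and 1031 between NINT and SAL, and no call of the 3 genes changed. The lists of endothelial, caveola and nitric oxide genes were not run, since no identifier was paired with a symbol.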
